A study of Mus musculus with 2 samples.

Results

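The 10 genes described here encode a TGF-β ligand, 3 receptors, the SMAD proteins that carry the signal and the SKI repressors that restrain it. They were taken by symbol (Tgfb1, Tgfbr1, Tgfbr2, Tgfbr3, Smad2, Smad3, Smad4, Smad7, Ski and Skil), and all 10 were found among the 24421 gene symbols of the RNA sequencing tables. RNA came from naïve CD4 T cells of C57BL/6J mice that had been skewed to Th1 cells in culture, with 1 library from Chi3l1+/+ (WT) cells and 1 library from Chi3l1-/- (Chi3l1 KO) cells. Chi3l1 KO mice lack chitinase 3-like 1 in all cells of the body, and the study asked how Th1 gene expression differs without it. The Th1 condition of the study contained anti-CD3, anti-CD28, IL-12, IL-2 and an anti-IL-4 antibody, and no added TGF-β. How many mice gave each library is not given in the sources used here. With 1 library per genotype, no difference below has a replicate check, and none was tested. The targeted gene went against the labels. Chi3l1, listed as Chil1, had a log2 value of 0.94 in the WT-labelled library and 6.66 in the KO-labelled library, from about 1 and 103 reads, so the libraries are called by their labels and every direction given here depends on those labels.

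TGF-β1 is secreted in a latent form and, once released, binds the type II receptor TGFBR2, which recruits and activates the type I receptor TGFBR1. TGFBR1 then phosphorylates SMAD2 and SMAD3, which join SMAD4 and enter the nucleus, while SMAD7 blocks the receptor and SKI and SKIL hold SMAD complexes silent on DNA. In T cells this pathway is known for restraining Th1 effector functions and for its part in regulatory T cell induction.

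Every member was expressed in both libraries, and none differed by 2-fold. Tgfb1 and Smad3 were lower in the Chi3l1 KO-labelled library, at 0.707 and 0.692 of their WT-labelled levels, and Skil and Tgfbr1 were higher, at 1.39 and 1.37 times. The other 6 members lay between 0.809 and 1.17 times. Across well expressed genes, fold changes declined with the GC content of the transcript, and the members ranged from 41.0% to 56.9% GC.

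The coding sequences of the 4 members that differed most are shown at their start, because fold change and base composition moved together in these libraries. They were read from GENCODE M21 transcripts (GRCm38), are 60 bases long, lie within 1 exon each, and have the start codon in capitals.
Tgfb1 (chr7:25687869-25687928, plus strand): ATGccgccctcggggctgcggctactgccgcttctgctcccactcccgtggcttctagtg
Smad3 (chr9:63757618-63757677, minus strand): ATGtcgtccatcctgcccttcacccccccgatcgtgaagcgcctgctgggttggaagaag
Tgfbr1 (chr4:47353312-47353371, plus strand): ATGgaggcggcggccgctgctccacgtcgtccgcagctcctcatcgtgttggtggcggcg
Skil (chr3:31097331-31097390, plus strand): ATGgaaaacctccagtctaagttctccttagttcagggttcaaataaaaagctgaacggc
G and C made up 68.3% of the window in Tgfb1, 61.7% in Smad3 and 41.7% in Skil. The Tgfbr1 window had 71.7%, although its whole coding sequence had 44.7% GC, against 58.4% in Tgfb1, 56.7% in Smad3 and 47.1% in Skil. The GC content of these start windows was not compared with that of other genes, so no relation to fold change is read from them. The end of the Smad3 coding sequence holds the serine codons that TGFBR1 targets in receptor-regulated SMADs. In the line below, capitals mark the last 4 codons before the stop codon.
Smad3 coding end (chr9:63650262-63650321, minus strand): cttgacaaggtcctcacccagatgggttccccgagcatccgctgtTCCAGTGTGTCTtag

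Promoter sequences, taken as the 250 bases before the gene start in the RefSeq table (GRCm38.p6), were held for 5 of the 10 members, namely Tgfb1, Tgfbr1, Tgfbr2, Smad3 and Ski. Those of the 2 members with the lowest ratios and of Tgfbr1 are shown, with the GC box GGGCGG, or its reverse complement CCGCCC, in capitals.
Tgfb1 promoter (chr7:25686752-25687001, plus strand): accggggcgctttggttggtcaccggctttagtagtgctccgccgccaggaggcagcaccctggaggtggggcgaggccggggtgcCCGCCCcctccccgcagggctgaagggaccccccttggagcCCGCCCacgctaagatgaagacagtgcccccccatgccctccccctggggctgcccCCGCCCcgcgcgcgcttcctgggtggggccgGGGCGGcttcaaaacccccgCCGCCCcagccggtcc
Smad3 promoter (chr9:63757995-63758244, minus strand): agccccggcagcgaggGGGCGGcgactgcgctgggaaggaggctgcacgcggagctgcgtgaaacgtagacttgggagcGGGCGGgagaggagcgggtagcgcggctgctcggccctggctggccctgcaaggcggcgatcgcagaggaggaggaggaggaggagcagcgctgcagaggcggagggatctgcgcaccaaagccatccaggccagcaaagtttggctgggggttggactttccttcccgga
Tgfbr1 promoter (chr4:47352972-47353221, plus strand): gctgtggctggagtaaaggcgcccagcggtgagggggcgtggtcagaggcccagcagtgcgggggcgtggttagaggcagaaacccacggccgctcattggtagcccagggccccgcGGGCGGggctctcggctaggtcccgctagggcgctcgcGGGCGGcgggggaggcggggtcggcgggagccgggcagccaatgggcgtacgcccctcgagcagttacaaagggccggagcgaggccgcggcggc
The Tgfb1 window held 5 GC boxes and the Smad3 and printed Tgfbr1 windows 2 each, and 32.7% of the 32851 windows in the table held at least 1. GC content was 75.2% in Tgfb1, 74.8% in the printed Tgfbr1 window and 69.2% in Smad3, against a median of 52.4% over all windows. The Ski window, with 87.6% GC and 5 GC boxes, was the richest of the 5, and 0.0365% of all windows had as much. The SMAD box CAGAC (either strand), present in 42.2% of all windows, was found in none of the 3 printed windows and once in the Tgfbr2 window. The table holds a second Tgfbr1 window (chr4:47385966-47386215), which had 52.8% GC, 0 GC boxes and 1 SMAD box.

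Rebuilt reads, the deposited values turned back into reads, summed to about 70711500 in the WT-labelled and 62991500 in the KO-labelled library. The 8 T cell markers were present in both libraries (summed normalized count 213526 and 210118, WT-labelled first), none of them past 2-fold. The 5 Th1 markers summed to 39888 and 48207, with Ifng past 2-fold higher and Cxcr3 past 2-fold lower. Markers of B cells, myeloid cells, platelets and NK cells had low summed counts that differed between the libraries. All 5 B cell markers were higher in the KO-labelled library (summed 939 and 1731), while 5 of 6 neutrophil markers were lower (80.3 and 4.79) with Camp at 0 in both. Of 7 monocyte and macrophage markers, 4 were lower and 2 higher (687 and 578), with Adgre1 at 0 in both. Of 5 platelet markers, 3 were lower (104 and 55.1), with Ppbp and Gp9 at 0 in both. NK cell markers summed to 27.1 and 52.1, with Ncr1 and Klra8 higher and Klrb1c lower. CD8 T cell markers summed to 812 and 807, but Cd8a was higher (0.60) and Cd8b1 lower (-0.47). The 5 regulatory T cell markers summed to 77912 and 92010 with 4 of 5 higher, of which Il2ra and Ctla4 are also known from activated T cells. The part of these cells in the members' differences was not tested. In bulk RNA, fewer cells of a type and less RNA per cell cannot be told apart.

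Levels were compared between genes as normalized counts per kilobase of the longest transcript. Tgfb1 stood far above the rest, at 17750 per kb in the WT-labelled and 12542 per kb in the KO-labelled library, which was 24.4 and 24.9 times the median of the other 9 members. Ski (1356 and 1182), Smad4 (1294 and 1048), Tgfbr3 (1209 and 1059) and Tgfbr2 (1038 and 921) followed closely together. Smad3 (729 and 504), Smad2 (350 and 409), Skil (262 and 363) and Smad7 (241 and 222) were lower. Tgfbr1 was the lowest member in both libraries, at 29.8 and 40.7 per kb. Ranks 1 and 2 and ranks 5 to 10 were held by the same members in both libraries, and Smad4 and Tgfbr3 exchanged ranks 3 and 4. The order depended on the length used. The longest Tgfb1 transcript is one with a retained intron, and with the mean length over a gene's transcripts Tgfb1 and Tgfbr1 stayed first and last, with Tgfb1 at 25.4 times the median of the others in the WT-labelled library. In between, Ski went from rank 2 to rank 5 in the WT-labelled and rank 7 in the KO-labelled library, and Smad3 from rank 6 to rank 4 in both. Neighbours such as Smad4, Tgfbr3 and Tgfbr2 were closer together than some members' own difference between libraries, so their order has no firm basis with 1 library each.

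**Figure D1:**
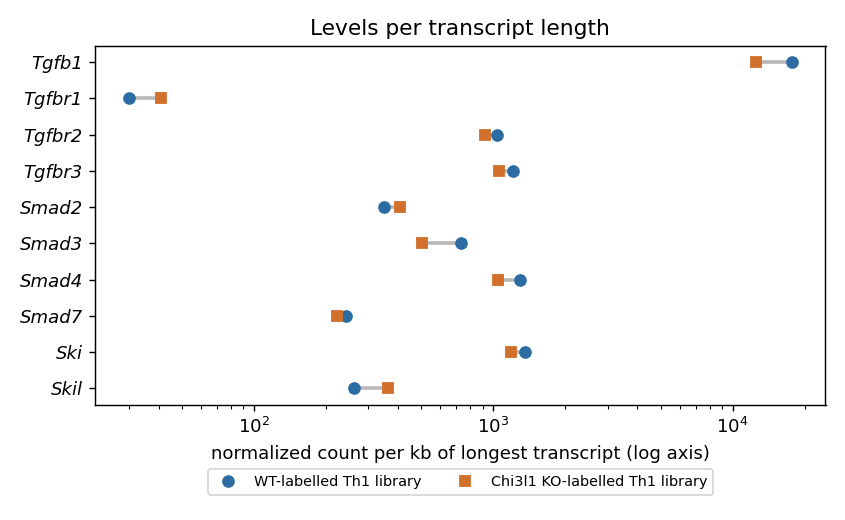
Normalized count per kilobase of longest transcript for each member on a log axis, with circles for the WT-labelled and squares for the Chi3l1 KO-labelled Th1 library (1 library each, no error bars). Tgfb1 sits at 17750 and 12542, far from the others, and Tgfbr1 sits at 29.8 and 40.7.

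**Figure D2:**
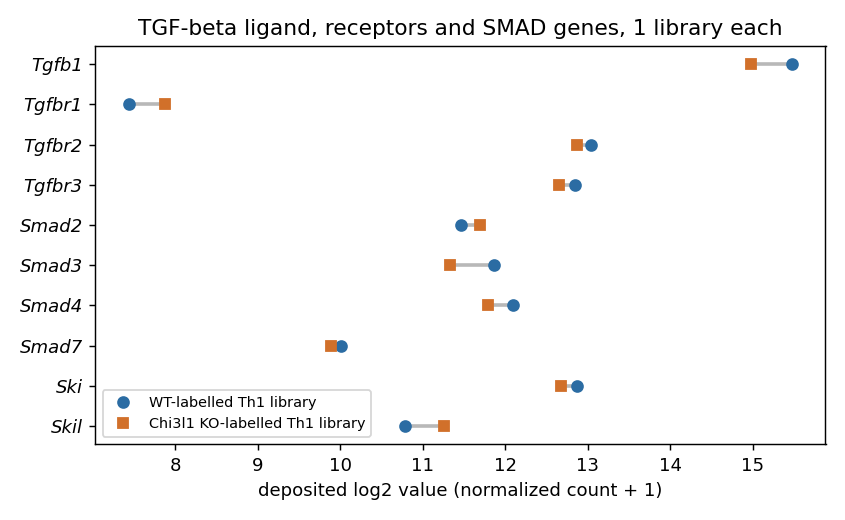
Deposited log2 value of each member in the WT-labelled library (circles) and the Chi3l1 KO-labelled library (squares), joined by a line, with 1 library each. The KO-labelled square lies to the left of the circle for 7 members and to the right for Tgfbr1, Smad2 and Skil.

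In the comparison of the libraries, 0 of the 10 members were past 2-fold. Over all 24421 genes, 10.5% were past 2-fold in either direction, many of them at low levels, and over the 8886 genes that reached log2 8 in both libraries, called well expressed here, the share was 1.2%. No member was past 1.5-fold either, where that share was 10.2% (3.95% higher and 6.29% lower). By sign, 7 members were lower and 3 were higher in the KO-labelled library, but Ski and Smad7 were not lower once the trend with GC content was removed, nor was Smad7 when scaled to the total without Rn45s. Their median log2 fold change was -0.18, against -0.01 over the 8886 genes. The median absolute log2 fold change was 0.26 for the members and 0.23 for those genes. Each interval below is a 95% exact binomial (Clopper-Pearson) interval from rebuilt reads, which covers read sampling alone and takes reads as independent.

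**Figure D3:**
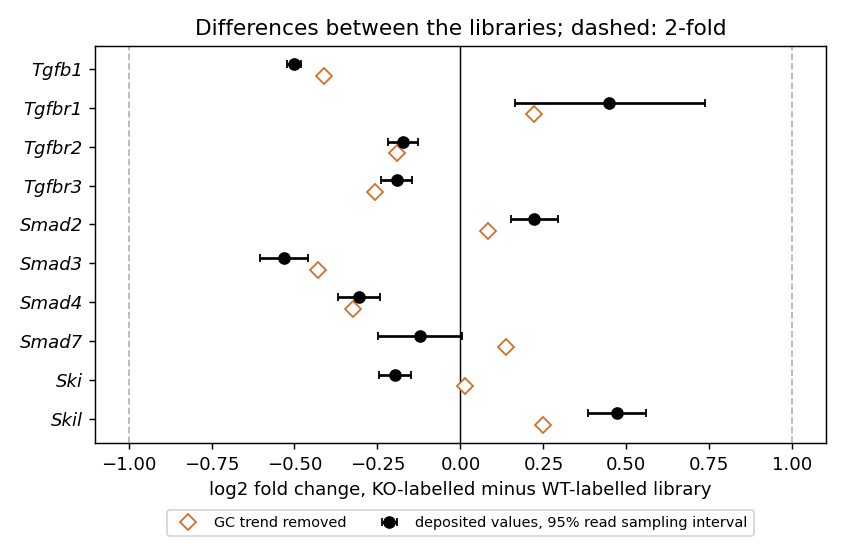
Log2 fold change of each member, KO-labelled minus WT-labelled library. Filled points are deposited values with 95% exact binomial intervals for read sampling, open diamonds are values after the GC trend was removed, and dashed lines mark 2-fold. Tgfb1 and Smad3 lie at -0.50 and -0.53 as deposited and at -0.41 and -0.43 without the trend, and Ski and Smad7 move across 0.

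The ligand Tgfb1 (chromosome 7, 25687002 to 25705077, GRCm38) had a log2 value of 15.48 in the WT-labelled and 14.98 in the KO-labelled library, from about 47180 and 33372 reads. The log2 fold change was -0.50 (interval -0.52 to -0.48). Among the 8886 well expressed genes, 15.8% differed by as much.

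Of the receptors, the type I receptor Tgfbr1 (chromosome 4, 47353222 to 47414931) had the fewest reads of all members. Its log2 value was 7.43 in the WT-labelled and 7.88 in the KO-labelled library, from about 177 and 242 reads, with a log2 fold change of 0.45 (interval 0.16 to 0.74). Among 2117 genes with a mean log2 value from 6 to 8, 43.2% differed by as much. The type II receptor Tgfbr2 (chromosome 9, 116084293 to 116175360) was 13.04 and 12.86, a log2 fold change of -0.17 (-0.22 to -0.13). The co-receptor Tgfbr3, or betaglycan (chromosome 5, 107106570 to 107289629), was 12.85 and 12.65, with -0.19 (-0.24 to -0.14). Of well expressed genes, 62.2% differed by as much as Tgfbr2 and 58.4% by as much as Tgfbr3. An exon of Gm43422 overlaps up to 297 bases of Tgfbr3 exons on the same strand, and reads there cannot be assigned to 1 gene. Per kilobase, Tgfbr2 stood at 34.8 times Tgfbr1 in the WT-labelled and 22.6 times in the KO-labelled library, or 21.2 and 13.8 times with mean transcript length. The difference between the log2 fold changes of Tgfbr1 and Tgfbr2 was 0.62, with a 95% read sampling interval from 0.34 to 0.90 by the normal approximation. With the trend with GC content removed, this difference was 0.415.

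The receptor-regulated SMADs differed in opposite directions. Smad3 (chromosome 9, 63646767 to 63757994) had a log2 value of 11.86 in the WT-labelled and 11.33 in the KO-labelled library, from about 3831 and 2654 reads. This was the lowest log2 fold change of the members, at -0.53 (-0.60 to -0.46), and 13.7% of well expressed genes differed by as much. Smad2 (chromosome 18, 76241580 to 76310963) was 11.47 and 11.69, with 0.22 (0.15 to 0.29). This Smad2 difference was ordinary in size, since 51.9% of well expressed genes differed by as much, and 75.9% did without the GC trend. The Smad3 level per kilobase was 2.08 times that of Smad2 in the WT-labelled and 1.23 times in the KO-labelled library. The log2 fold change of Smad3 minus that of Smad2 was -0.75 (-0.85 to -0.65, read sampling by the normal approximation). Their common partner Smad4 (chromosome 18, 73639009 to 73703780) was 12.10 and 11.79, with -0.31 (-0.37 to -0.24), and 38.5% of well expressed genes differed by as much.

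The inhibitory members did not share a direction in the deposited values. Once the trend with GC content was removed, Skil was at 0.25 and Smad7 at 0.14. Ski then lay on the trend, at 0.01, and 95.8% of well expressed genes differed by as much. Smad7 (chromosome 18, 75367529 to 75395935), the feedback inhibitor of the receptor, was 10.01 and 9.89, from about 1066 and 980 reads, with a log2 fold change of -0.12 whose interval, -0.25 to 0.0037, includes 0. As deposited, 72.5% of well expressed genes differed by as much as Smad7. The corepressor Ski (chromosome 4, 155154075 to 155222592) was 12.87 and 12.67, with -0.20 (-0.24 to -0.15), and 57.2% of well expressed genes differed by as much. Its relative Skil, also called SnoN (chromosome 3, 31095058 to 31122577), was 10.78 and 11.25, from about 1817 and 2523 reads, with 0.47 (0.38 to 0.56), and 18.1% of well expressed genes differed by as much. Per kilobase, Ski stood at 5.18 times Skil in the WT-labelled and 3.26 times in the KO-labelled library, or 3.41 and 2.14 times with mean transcript length.

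Base composition moved with these differences. Across 8579 well expressed genes with a transcript, log2 fold change and GC content of the longest transcript had a Spearman rho of -0.53, and over 20 GC bins the bin medians declined from 0.23 at the AT-rich end to -0.45 at the GC-rich end. Across the 10 members the rho was -0.61 and the Pearson r -0.81, where the points are genes of the same 2 libraries and not independent replicates. The 3 members that were higher, Tgfbr1 (41.0% GC), Skil (41.0%) and Smad2 (44.9%), had the lowest GC content, and the 7 that were lower ranged from 48.6% in Tgfbr3 to 56.9% in Smad7.

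**Figure D4:**
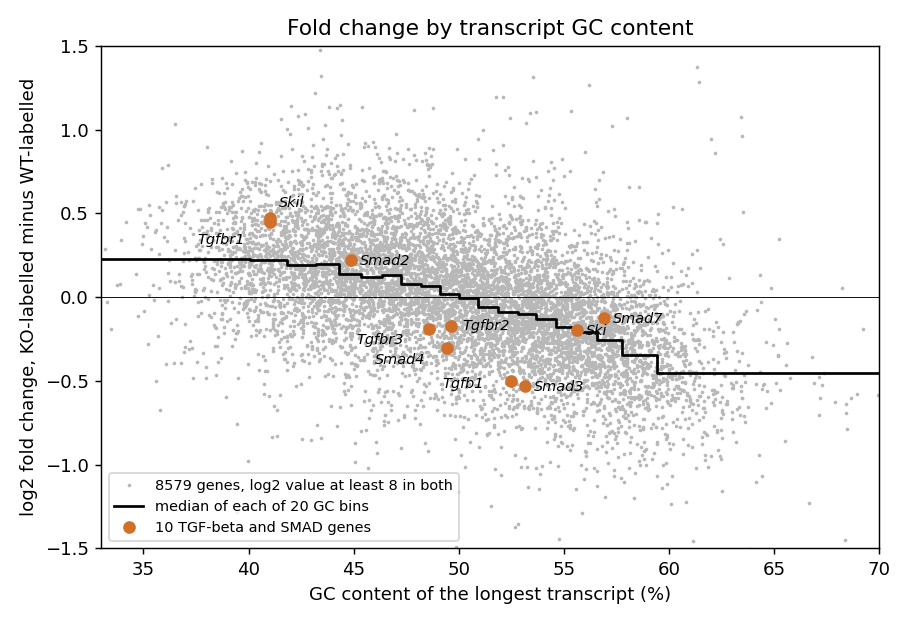
Log2 fold change (KO-labelled minus WT-labelled library) against GC content of the longest transcript in percent. Grey points are the well expressed genes (8579 genes, 13 of them outside the axes), the black line is the median of each of 20 GC bins, and orange points are the 10 members. Tgfb1 and Smad3 lie below the line by 0.41 and 0.43, while Ski lies on it.

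After the median of each GC bin was subtracted, 5 members were lower and 5 were higher. Smad3 and Tgfb1 were at -0.43 and -0.41, and 14.7% and 16.3% of well expressed genes differed by as much on this scale. Smad4 had -0.32, Tgfbr3 -0.26 and Tgfbr2 -0.19. Skil and Tgfbr1 were at 0.25 and 0.22, about the size of the trend that was removed, and Smad2 was at 0.08. Ski moved to 0.01 and Smad7 to 0.14, so that neither kept its sign. The Smad3 minus Smad2 difference remained at -0.51, whereas that of Ski minus Skil went from -0.67 to -0.24. The longest Tgfb1 transcript, with a retained intron, had 52.5% GC, against 58.4% in its coding sequence. When the trend with coding GC was removed instead, a setting chosen after seeing the data, Smad3 was at -0.37 and Tgfb1 at -0.28.

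The genes around the members were taken as 7 lists of 89 genes in all. Of these, 3 were past 2-fold higher and 5 past 2-fold lower in the KO-labelled library, against 4.7% and 5.81% of all genes. Of the 62 well expressed ones, 0 were past 2-fold higher and 1 was lower, against 0.461% and 0.743% of all well expressed genes. Their median log2 fold change was -0.11, against -0.01 over all 8886 such genes, and 16.1% of them were past 1.5-fold, against 10.2%.

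**Figure D5:**
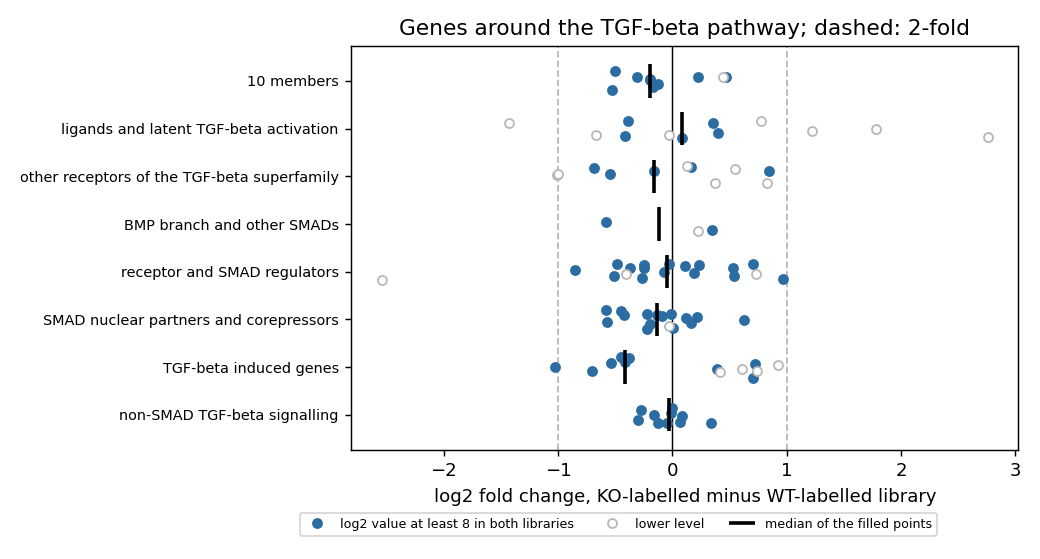
Log2 fold change (KO-labelled minus WT-labelled library) of each gene in the 10 members and the 7 other lists. Filled points are well expressed genes, open points are lower ones, bars are medians of the filled points, dashed lines mark 2-fold, and genes at 0 in both libraries are not drawn. Of the filled points outside the members, 0 are past 2-fold higher and 1 is past 2-fold lower.

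Among the ligands and the genes of latent TGF-β activation, 3 of 13 were past 2-fold higher and 1 lower, each of them with at most 23 reads in either library. Furin, the protease that cleaves the TGF-β1 precursor, was the most abundant of the list and had log2 values of 16.89 and 16.98. Lrrc32 (GARP) and Nrros, which tether latent TGF-β1 to the cell surface, had log2 fold changes of -0.39 and -0.41. Itgav, the integrin αv chain that binds latent TGF-β, was at 0.40. Without the GC trend Lrrc32 was at -0.04, Nrros at -0.31 and Itgav at 0.20. Tgfb3 was 8.12 and 8.48, and Tgfb2 was near absent, with 7 and 2 reads.

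Of 12 other receptors of the superfamily, 0 were past 2-fold higher and 2 lower, both under 30 reads. Acvrl1, the type I receptor ALK1, was 14.65 and 13.97, with a log2 fold change of -0.68. Eng, or endoglin, a co-receptor that works with ALK1, was at -0.55, and Acvr1, a BMP type I receptor, was at 0.84. Without the GC trend these were -0.47, -0.29 and 0.78. Exons of Acvrl1 and Eng each overlap a gene on the opposite strand, by up to 87 bases of Gm16031 and 61 bases of Fpgs. Of the 4 other SMADs, none was past 2-fold. Smad1 was at -0.58 and Smad5 at 0.35, or -0.53 and 0.21 without the GC trend, while Smad6 had few reads and Smad9 was at 0 in both libraries.

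Among 19 regulators of receptors and SMADs, 0 were past 2-fold higher and 1 lower, which was Zfyve9 with 5 and 0 reads. Pmepa1, a TGF-β target that holds SMADs back from the receptor, was 10.67 and 9.82, with -0.85 (-0.97 to -0.73), and stayed at -0.72 without the GC trend. Strap, a receptor-binding adaptor, was 10.72 and 11.69, with 0.97 (0.88 to 1.05), and Usp15, a deubiquitinase of the receptor complex, was at 0.70. These were 0.83 and 0.51 without the GC trend. Fkbp1a, which binds the type I receptor, was the most abundant at 17.60 and 17.53. Among 16 nuclear partners, none was past 2-fold. E2f4 was at -0.58 and Zeb2 at 0.63, and removal of the GC trend left -0.37 and 0.40.

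Of 15 genes listed as responding to TGF-β in T cells or other cells, not all of them by induction in every cell type, 0 were past 2-fold higher and 1 was lower. Over the list 7 were higher and 6 lower, with a median of 0.39 over those above 0. The 9 well expressed ones went the other way, with 6 of 9 lower and a median of -0.41, or -0.25 without the GC trend. Among these 6 are Id2 (-0.41, the median itself) and Id3 (-0.375), which TGF-β lowers in some cells, so this median does not measure induction by TGF-β. Cish, the most abundant of the list and also a cytokine-induced gene, was at -0.45. Foxp3, the regulatory T cell factor, was higher, at 10.94 and 11.66 with 0.72 (0.64 to 0.80), as was Ccr8 with 0.70, and these were 0.90 and 0.81 without the GC trend. The known targets among the members, Smad7 and Skil, were at -0.12 and 0.47. Of the 10 genes of TGF-β signalling outside SMADs, which include the kinase Map3k7 (TAK1, 0.34) and its partner Tab1 (-0.30), none was past 1.5-fold. Pard6a was at -0.27, and the most abundant, Mapk14, was at -0.12. Without the GC trend Map3k7 was at 0.20 and Tab1, Pard6a and Mapk14 were at 0.04, -0.01 and -0.04.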

How the data were processed

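Naïve CD4 T cells were skewed to Th1 cells, and libraries were made from polyadenylated RNA with the SENSE mRNA-Seq kit. Per the labels, the authors mapped reads with TopHat to mm10, and their notes also name edgeR. The paper's methods also describe FPKM and a global normalization, and they say that alignments to a unique place and to several places were both counted, so genes of similar sequence can share reads. The deposited tables hold 1 log2 value per gene and library. The unit, log2 of a normalized count plus 1, was inferred from the values. After the log was undone, all values between 4.5 and 30 lay within 0.15 of a whole multiple of 0.968 (WT-labelled) or 0.967 (KO-labelled), which was taken as 1 read. In both libraries 3 reads correspond to 1.96 on the log2 scale.

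The log2 fold change is the deposited KO-labelled value minus the WT-labelled one, with no further normalization. No test was run, since each genotype has 1 library. Read sampling intervals cover counting error only. GC content and length came from the longest GENCODE M21 transcript, which matched 96.0% of the 15541 symbols that reached log2 1 in either library. The annotation and the strand setting of the authors' counting are not given in the sources used here. Ccn2 was matched under its older symbol Ctgf. From the other lists the text names every gene past 2-fold with a log2 value of at least 5, the 3 largest differences among genes at 8 or more in both libraries, and the most abundant gene. With 2 libraries, likeness of pattern between genes cannot be measured. Tgfb2, Tgfb3, Zfyve9, Smad6, Smad9, Id2, Id3, Bmpr2, Acvr2a, Acvr2b, Amhr2 and the single markers were named after their values were seen. Of the genes this rule gives, 2 are not reported here. Members and lists were chosen with earlier results of these data known. The code was tested on simulated data. Tools were scipy 1.17.1, matplotlib 3.10.9, pandas 2.3.3 and numpy 2.4.6 under Python 3.11.15.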

Additional observations from a re-analysis of the deposited data

How the results depend on the processing

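No paired analysis was possible because each genotype has 1 library. No member was past 2-fold under any of the 8 alternatives of scale, scaling or trend, nor past 1.5-fold in the deposited values, although 1 (Skil) was past 1.5-fold when scaled to Actb and 2 (Skil and Tgfbr1) were when scaled to the total without Rn45s. These scalings raised the median of well expressed genes by 0.12 and 0.14. Tgfb1, Tgfbr1, Tgfbr2, Tgfbr3, Smad2, Smad3, Smad4 and Skil kept their direction under all 8. Smad7 was of the other sign in 3 (0.02 to 0.28) and Ski in 2 (0.01 and 0.20). A smaller pseudocount and median-ratio scaling hardly moved any member, so they could not have changed a sign. Tgfbr2 ranged from -0.19 to -0.02 and Tgfbr3 from -0.26 to -0.05, so their lower direction was close to none in some settings. Tgfb1 ranged from -0.50 to -0.28 and Smad3 from -0.53 to -0.37, and both were smallest in size with the coding GC trend removed. The members' median of -0.18 moved to -0.0665 (Actb), -0.0412 (total without Rn45s), -0.0895 (GC trend removed), -0.11 (level trend removed) and 0.0265 (coding GC trend removed, chosen after seeing the data). In the whole table, 1147 genes were past 2-fold higher and 1418 lower, which became 2345 and 2795 at 1.5-fold and 41 and 66 among well expressed genes. The other pathway genes past 2-fold, 3 higher and 5 lower, became 15 and 9 at 1.5-fold, 0 and 1 at that level, and 5 and 2 with either the Actb or the total scaling. The count of lower genes was 3 with median-ratio scaling, quantile normalization or the GC trend removed. By construction, the Actb and total scalings shift all well expressed genes alike, and the filters and thresholds change the genes counted. The cause of the other moves was not tested. Depth limits Tgfbr1 most among the members.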

Other observations

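Of the ALK1 branch of the TGF-β superfamily, which signals through SMAD1 and SMAD5, Acvrl1, Eng, Smad1 and Smad5 were well expressed in these Th1 libraries. Acvrl1, which encodes ALK1 and is best known from endothelial cells, stood at 7073 normalized counts per kb of longest transcript in the WT-labelled and 4405 in the KO-labelled library. This was 237 and 108 times the level of Tgfbr1 per kb, and 248 times in the WT-labelled library with mean transcript length in place of the longest. The other type I receptors were much lower, with Acvr1b at 197 and 176, Acvr1 at 80.1 and 144, and Bmpr1a at 32.2 and 41.8 per kb. Smad1 stood at 424 and 283 and Smad5 at 364 and 464 per kb, while Smad9 was at 0 in both libraries. The type II receptors other than Tgfbr2 had few reads, WT-labelled first: Bmpr2 359 and 403, Acvr2a 52 and 93, Acvr2b 12 and 18, and Amhr2 29 and 14. Acvrl1, Eng and Smad1 were all lower in the KO-labelled library, with log2 fold changes of -0.68, -0.55 and -0.58. They remained lower without the GC trend, at -0.47, -0.29 and -0.53. Smad5 went the other way, at 0.35, or 0.21 without the GC trend, so the branch did not share 1 direction. These genes were singled out after their values were seen, and the low level of Tgfbr1 beside that of Acvrl1 was not followed up by transcript, since the tables give 1 value per gene.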
